A study of Mus musculus with 62 samples.

Results

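The 37 genes described here encode molecular chaperones and their regulators: 19 that act in the cytosol and nucleus, 15 of the endoplasmic reticulum (ER) and 3 of the mitochondria. They were taken by symbol from a table of 55487 mouse genes, and all 37 were found and passed the filter on low counts. Reads of poly-A RNA were counted in the quadriceps of 62 male mice that differed in 3 factors: voluntary wheel running, nicotinamide riboside (NR, a form of vitamin B3 from which cells make NAD, given intravenously per the series title) and pterostilbene (PT, a resveratrol-like compound of blueberries). The running mice received NR and PT (8 mice), NR alone (7), PT alone (8) or neither (7), and the non-running mice received NR and PT, NR alone, PT alone or neither (8 each). The labels and series text used here give no strain, age, dose or length of running. No mouse carried a labelled mutation or transgene. Each mouse gave 1 library, and the labels place it in 1 of 2 cohorts, on 1 of 8 days of termination and in the morning or at noon. Within a day all runners had 1 time of termination and all non-runners the other, which alternated over the days, so that running and time could be fitted together but their interaction cannot be told apart from the kind of day.

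Chaperones bind unfolded or partly folded proteins and keep them from aggregating. In the cytosol, HSP70 proteins work with J-domain partners that deliver clients and with exchange factors that release them, HSP90 proteins finish selected clients, and small heat shock proteins hold unfolded proteins without using ATP. In muscle, several of them (Cryab, Hspb1, Hspb7, Hspb8 with Bag3) attend to the sarcomere and its Z disc during contraction. Hsf1 switches on the inducible cytosolic genes during heat and other stress. In the ER, Hspa5 (BiP) is the HSP70 protein that binds incoming secretory and membrane proteins and holds the stress sensors inactive, and the transcription factors Atf6 and Xbp1 raise the ER chaperone genes when unfolded protein accumulates. Each of these is read here as messenger RNA of whole muscle, in which fewer cells of a type and less RNA per cell cannot be told apart.

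Library totals lay between 5.64 and 30.8 M counts, with a median of 16.1 M, and RNA integrity numbers between 8.6 and 10. The summed level of 10 defining genes of the muscle fibre was 141083 to 226757 CPM (counts per 1 M, with scaled library sizes) in the running mice, against 150366 to 192031 in the non-running mice. In 4 libraries more than 0.5% of counts lay in ribosomal-RNA-like genes, at most 16.7%, and the running count below is also given without them. The labels give each library its own body weight change, so libraries are read here as separate mice.

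Per length, the most abundant members were a constitutive HSP90 gene and 3 small heat shock protein genes. On the scale of reads per kilobase of gene model and 1 M counts (RPKM, mean over 62 mice), Hsp90ab1, the constitutive cytosolic HSP90, stood first at 394 ± 24.6 (SD). The small heat shock protein genes followed, with Cryab (αB-crystallin) at 271 ± 74.6 RPKM, Hspb8 at 264 ± 29.1 RPKM and Hspb6 at 246 ± 43.7 RPKM, 3 levels that lie within their spread of one another. Hspa8, the constitutive cytosolic HSP70, was at 116 ± 12.1 RPKM and Hspa9, its mitochondrial relative, at 109.6 ± 10.4 RPKM, which also overlap. The most abundant ER members were Calr (calreticulin, a lectin chaperone that also buffers calcium) at 48.8 ± 3.23 RPKM and Hspa5 at 40.3 ± 4.40 RPKM. The heat-inducible pair Hspa1a and Hspa1b stood last, at 0.448 ± 0.212 RPKM and 0.481 ± 0.219 RPKM, with 3 to 57 counts a library for Hspa1a, and their near-identical sequences mean that reads may be split between them. The inducible HSP90 gene Hsp90aa1 was at 7.08 ± 0.766 RPKM, far below its constitutive partner. The gene of Cryab overlaps Hspb2 on the opposite strand over 1030 bases. Its level may thus depend on the strand setting of the count, which the labels do not state.

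A few chaperone messages were lower in runners by small amounts, most of them in the ER. Of 37 members, 7 passed the test for running at an adjusted p below 0.05 (edgeR quasi-likelihood test, Benjamini-Hochberg over all 14549 genes), 6 of them lower and 1 higher in 30 runners than in 32 non-runners. That is 18.9% of the members, near the 14% of all genes tested that passed. By direction, 16.2% of members fell, against 5.58% of all genes, and 2.7% rose, against 8.41% of all genes. The median log2 change was -0.07 over the 15 ER members, of which 13 lay below 0, -0.03 over the 19 cytosolic and nuclear members, of which 11 lay below 0, and 0.01 over the 3 mitochondrial members, beside 0.01 over all genes. The 4 called ER members (Hspa5, Xbp1, Calr, Hsp90b1) all fell, 26.7% of that compartment, and the 3 called cytosolic members were Dnajb5 and Hspa8, which fell, and Hspa4l, which rose. Without the 4 libraries rich in ribosomal-RNA-like reads, 9 members passed, the same 7 among them. All runners of a day shared 1 session of day and time, so running varied only between the 16 sessions. The fit reads mice as separate, with 46 residual degrees of freedom, against 6 with counts summed by session. Its p-values may be too small if mice of a session were alike. Hspa5, Hspa8 and Dnajb5 also passed with counts summed by session.

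**Figure D1:**
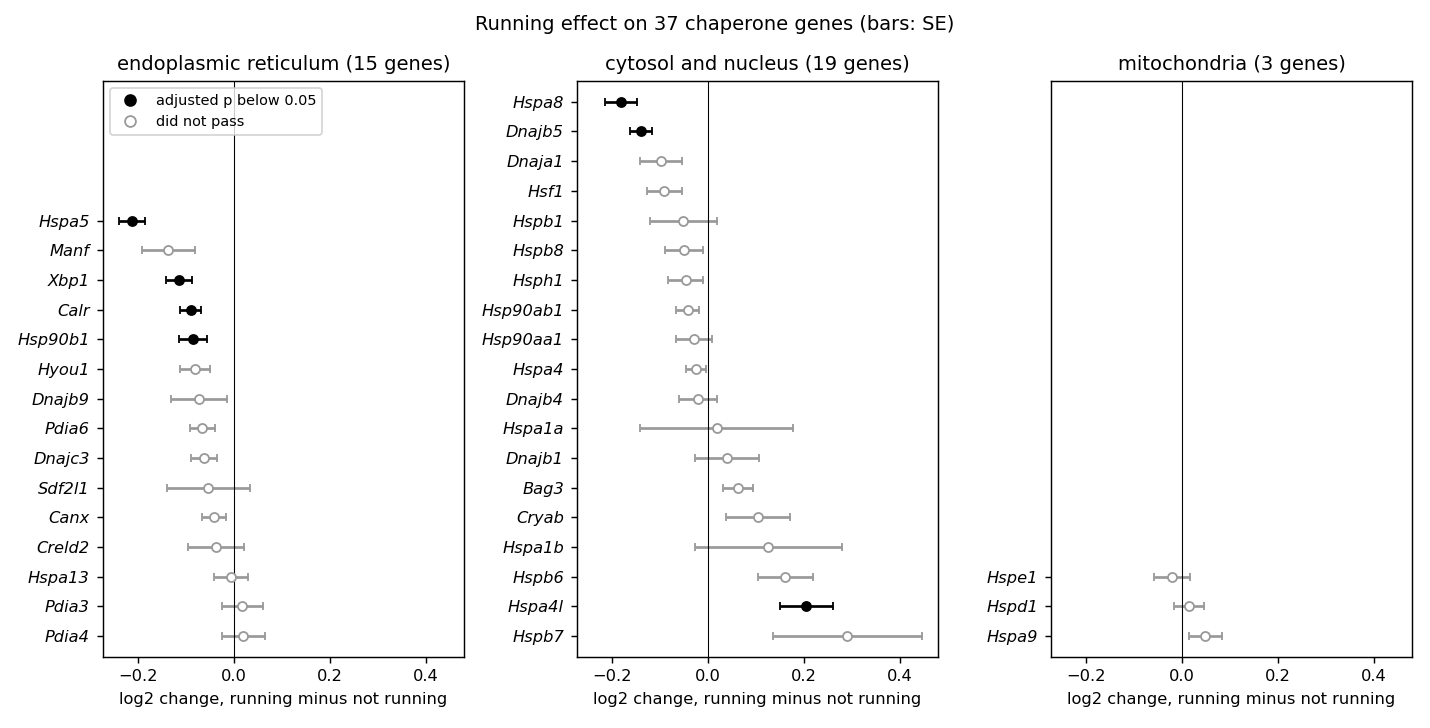
Log2 change of each of the 37 genes in 30 runners minus 32 non-runners (x axis), by compartment and ordered by the change, with bars for the standard error and filled points where the adjusted p was below 0.05. The ER panel lies mostly left of 0, with Hspa5 farthest at -0.21, and the 3 mitochondrial changes lie between -0.02 and 0.05.

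The ER members that fell include genes whose promoters hold the ER stress response element, the site read by Atf6 together with NF-Y. The element was searched as CCAAT, 9 bases of any kind and CCACG on both strands of the window from 250 bases before to 50 bases after the RefSeq start (GRCm38.p6). It occurs in 0.119% of 32851 such windows and in 7 of the 28 member genes that have a window, all 7 of the ER, whose 12 matched members also include Xbp1 without it. The sites are shown because 3 of these genes (Hspa5, Calr, Hsp90b1) are among the 4 ER members that fell. The changes of all 7 lay below 0, as did those of 13 of the 15 ER members. The sites were thus picked with the changes known, and a link between element and change was not tested. Each is printed with 5 bases on either side, on the strand on which it reads as spelled, with the fixed letters of the element in capitals.
Hspa5, chr2:34772020-34772048, plus strand: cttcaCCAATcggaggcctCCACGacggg
Calr, chr8:84847070-84847098, plus strand: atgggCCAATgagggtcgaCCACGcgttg
Hsp90b1, chr10:86705633-86705661, minus strand: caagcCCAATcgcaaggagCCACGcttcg
Hsp90b1, chr10:86705528-86705556, plus strand: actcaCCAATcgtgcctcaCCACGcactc
Canx, chr11:50325795-50325823, minus strand: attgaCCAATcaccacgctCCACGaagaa
Pdia6, chr12:17266486-17266514, plus strand: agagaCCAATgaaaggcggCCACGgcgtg
Dnajc3, chr14:118937822-118937850, plus strand: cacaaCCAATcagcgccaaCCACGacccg
Creld2, chr15:88819515-88819543, minus strand: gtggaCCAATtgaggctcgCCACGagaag
The spacers of 9 bases differ between the sites, while the fixed letters are the same by construction. The Hspa5 site lies 65 to 47 bases before the RefSeq start, on the strand of the gene. The Calr site lies 162 to 144 bases before the start on the opposite strand, and Hsp90b1 has one site on each strand. Neither ATTGG, 1 base of any kind and CCACG (0.0365% of windows) nor TGACGTGG (0.676% of windows), letters of related stress elements, was found in a member's window. These matches describe sequence and say nothing of binding in these muscles.

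Hspa5 (mm10 chr2:34771970-34777547, plus strand) gave the smallest p of the members. Runners had 125 to 184 CPM with a median of 158 CPM, against 155 to 204 CPM with a median of 181 CPM in non-runners, so the ranges overlap between 155 and 184 CPM. By supplement, runners with NR and PT had 138 to 184 CPM (median 146), against 174 to 199.5 CPM (median 183) in non-runners with NR and PT. Runners with NR alone had 125 to 176 CPM (median 149.7), against 168 to 199 CPM (median 182) in non-runners with NR alone. Runners with PT alone had 162 to 180.1 CPM (median 169), against 168 to 204 CPM (median 192) in non-runners with PT alone. Runners with neither had 129 to 179.9 CPM (median 156), against 155 to 193 CPM (median 175) in non-runners with neither. The runners' median was lower in each of the 4 pairs of groups, and in each pair the ranges overlapped. The fitted log2 change was -0.21 ± 0.03 (SE; adjusted p = 3.91e-07), a fold of 0.863. Taking 30 pairs of a runner and a non-runner of the same day and supplements, the runner was lower in 27, in 13 of 15 pairs where the runner was taken at noon and in 14 of 15 where it was taken in the morning.

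Xbp1, the transcription factor that drives ER expansion once its messenger has been spliced by the stress sensor, had 50.7 to 73.9 CPM (median 58.4) in runners, against 53.4 to 73.3 CPM (median 64.3) in non-runners. The change was -0.11 ± 0.03 (adjusted p = 0.00293), and the runner was lower in 24 of 30 pairs. Gene counts do not separate its spliced from its unspliced form. Calr had 117 to 156 CPM (median 136) in runners, against 130.4 to 166 CPM (median 144) in non-runners, a change of -0.09 ± 0.02 (adjusted p = 0.00438) with the runner lower in 23 of 30 pairs. Both genes moved by less than the range within either group, and the ranges of runners and non-runners overlap.

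Hsp90b1 (GRP94, the HSP90 protein of the ER, which folds integrins and Toll-like receptors) had 72.1 to 118 CPM (median 100.4) in runners, against 93.5 to 125 CPM (median 105) in non-runners. Its change of -0.09 ± 0.03 just passed (adjusted p = 0.0441) and the runner was lower in 20 of 30 pairs, in 8 of 15 in cohort 2 and in 12 of 15 in cohort 1. The call rests on single days: without day 1 the adjusted p was 0.191 and without day 2 it was 0.0997, with changes of -0.07 in both. The gene overlaps 1810014B01Rik on the opposite strand over 3918 bases, and reads of both would be mixed in a count made without strand, a setting the labels do not state.

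Of the other 11 ER members none passed, and 9 had changes below 0. Hyou1, the large ER HSP70 that releases nucleotide from Hspa5, had 24.0 to 32.9 CPM (median 28.1) in runners, against 25.2 to 37.3 CPM (median 29.6) in non-runners, with a change of -0.08 ± 0.03 (adjusted p = 0.0709). Pdia6, a protein disulfide isomerase, changed by -0.07 ± 0.03 (adjusted p = 0.0746). Manf, a secreted factor that also stabilises Hspa5 complexes, changed by -0.14 ± 0.05 (adjusted p = 0.0839) at a median of 10.1 CPM in runners, against 10.6 CPM in non-runners, and its gene model overlaps Rbm15b on the same strand and Dcaf1 on the other. Dnajc3, a J-domain partner of Hspa5, changed by -0.06 ± 0.03 (adjusted p = 0.111). The lectin chaperone Canx, the J-domain partner Dnajb9, Sdf2l1 and the stress-responsive Creld2 had changes between -0.07 and -0.04, Hspa13 -0.01, and the disulfide isomerases Pdia3 and Pdia4 0.02 each, with adjusted p between 0.275 and 0.942.

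**Figure D2:**
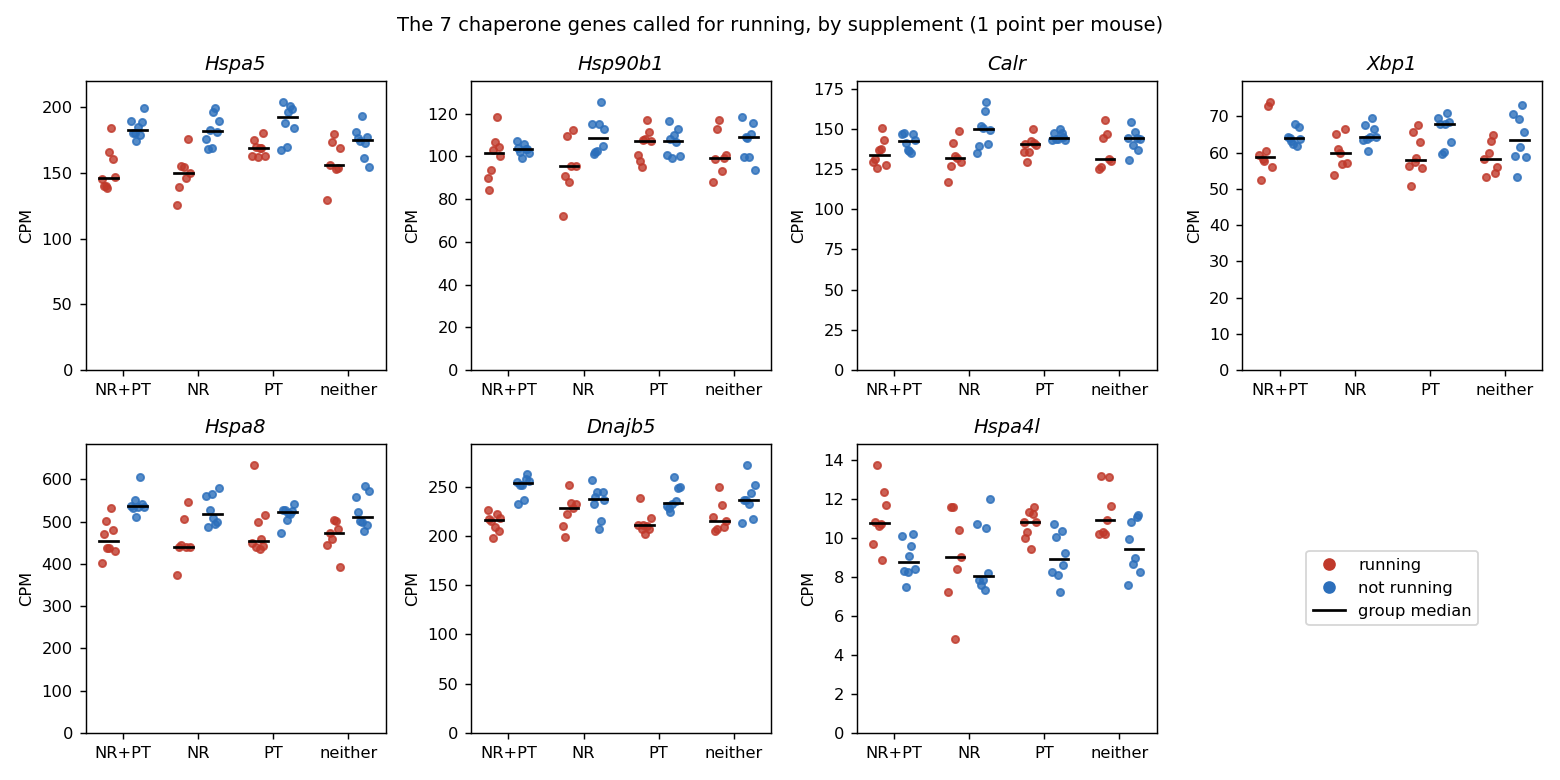
Level in CPM (y axis, linear from 0) of the 7 genes that passed the test for running, 1 point per mouse, with running mice left of non-running mice in each of the 4 supplement arms (x axis) and a bar at each group median. The medians of Hspa5, Hspa8, Dnajb5, Xbp1 and Calr are lower and those of Hspa4l higher in runners in every arm, while the points of paired groups overlap in most arms.

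Among the cytosolic HSP70 genes, the constitutive member fell and a member of the HSP110 branch rose. Hspa8 (chr9:40800984-40810087, plus strand), which also strips clathrin from vesicles and feeds clients to chaperone-mediated autophagy, had 373 to 633 CPM (median 454) in runners, against 472 to 604 CPM (median 527) in non-runners. The highest value of all belonged to a runner given PT alone, and in each supplement arm the highest runner lay above the lowest non-runner. The log2 change was -0.18 ± 0.03 (adjusted p = 0.000119, a fold of 0.882), with the runner lower in 25 of 30 pairs, in 11 of 15 with the runner at noon and in 14 of 15 with the runner in the morning. Hspa4l, an exchange factor of the HSP110 kind, had 4.84 to 13.8 CPM (median 10.8) in runners, against 7.22 to 12 CPM (median 8.82) in non-runners. It rose by 0.20 ± 0.06 on the log2 scale (adjusted p = 0.00938), with the runner higher in 23 of 30 pairs, but without day 1 the change was 0.15 with an adjusted p of 0.114. Both the lowest and the highest of its 62 values came from runners. Its relatives Hspa4 (-0.03 ± 0.02) and Hsph1 (-0.05 ± 0.04) did not pass. Hspa1a and Hspa1b, summed to 1 row because of their shared sequence, changed by 0.07 ± 0.14 (adjusted p = 0.793), an error that leaves changes of some size undetectable at this depth.

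Of the J-domain and exchange partners in the cytosol, Dnajb5 (chr4:42949814-42959425, plus strand) fell. It encodes a J-domain partner of HSP70. Runners had 198 to 252 CPM (median 215), against 208 to 272 CPM (median 238) in non-runners. The log2 change was -0.14 ± 0.02 (adjusted p = 3.88e-05, a fold of 0.908), and the runner was lower in 23 of 30 pairs, in 10 of 15 with the runner at noon and in 13 of 15 with the runner in the morning. In mice given both supplements the groups did not overlap, at 198 to 227 CPM in runners and 233 to 263 CPM in non-runners, whereas in the other 3 arms they did. The share of all genes whose groups separate in that arm was not computed. No member passed a test for a running effect that differs between supplements. Dnaja1 changed by -0.10 ± 0.04 (adjusted p = 0.128), Bag3, the exchange factor that routes damaged sarcomere proteins to autophagy, by 0.06 ± 0.03 (adjusted p = 0.179), Dnajb1 by 0.04 ± 0.07 and Dnajb4 by -0.02 ± 0.04, and none of the 4 passed. Hsf1 itself changed by -0.09 ± 0.04 (adjusted p = 0.0856), and the HSP90 genes Hsp90ab1 and Hsp90aa1 by -0.04 ± 0.02 and -0.03 ± 0.04.

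The small heat shock protein genes did not pass the running test, and 3 of the 5 had changes above 0. Hspb6, a partner of contractile regulation in smooth and striated muscle, had 413 to 819 CPM (median 601) in runners, against 321 to 799 CPM (median 541) in non-runners, a change of 0.16 ± 0.06 at an adjusted p of 0.0506. Hspb7, which binds filamin C at the Z disc, had 64.3 to 535 CPM (median 149) in runners, against 65.6 to 865 CPM (median 122) in non-runners, a change of 0.29 ± 0.16 (adjusted p = 0.214), with an error as wide as those of Hspa1a and Hspa1b. Cryab changed by 0.10 ± 0.07, Hspb1 by -0.05 ± 0.07 and Hspb8 by -0.05 ± 0.04. Their levels by day are given below.

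In the mitochondria no member passed. Hspa9 (mortalin, which pulls imported proteins into the matrix) had 398 to 611 CPM (median 469.9) in runners, against 385 to 541 CPM (median 459) in non-runners, a change of 0.05 ± 0.03 (adjusted p = 0.376). Hspe1 (the lid of the matrix chaperonin) had 21.2 to 47.5 CPM (median 35.0) in runners, against 31.6 to 42.9 CPM (median 35.7) in non-runners, a change of -0.02 ± 0.04, and Hspd1 (the chaperonin barrel) changed by 0.01 ± 0.03. Hspd1 and Hspe1 start from a shared promoter in opposite directions, their models overlap by 112 bases, and the promoter holds a heat shock element. The element was searched as GAA, TTC and GAA at steps of 2 free bases, on both strands, and 2 overlapping matches on opposite strands together make 4 units. They are shown in capitals because they lie between the RefSeq starts of these divergent members. The Hspd1 gene model used for counting reaches past them.
Hspd1 and Hspe1, chr1:55088054-55088081, plus strand: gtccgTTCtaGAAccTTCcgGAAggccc
The 3-unit letters occur in 0.603% of windows on either strand, and of the members also in the window of Hsph1. At least 1 of the 2-unit forms GAANNTTC and TTCNNGAA, which the 3-unit form contains, was present in 9 of 14 cytosolic and nuclear members with a window and in 0 of the 12 ER members, against 15.1% of all windows.

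Markers of other cell types moved with running too. All 10 endothelial markers rose, at a summed 256 to 501 CPM (median 358) in runners against 244 to 344 CPM (median 296) in non-runners. Of the other lists, 2 of 7 fibroblast, 2 of 7 tested leukocyte, 3 of 6 smooth muscle and pericyte and 1 of 6 adipocyte markers rose, with 1 smooth muscle marker and 1 of 6 Schwann cell markers lower. Among 10 fibre markers Myh1 rose and Actn3 fell. Their part in the chaperone results was not tested. No defining marker list was at 0 in either group.

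The supplements by themselves did not move any member past the test. For NR 0 of 37 members passed, against 0.0206% of all genes, and none had an unadjusted p under 0.05; DESeq2 also called 0. For PT 0 of 37 passed, against 0% of all genes, and 2 (Hspa5 and Sdf2l1) had an unadjusted p under 0.05, with 0 calls by DESeq2, beside 5.69% of all genes at that threshold for NR and 3.99% for PT. Log2 changes for NR lay between -0.11 and 0.10, and the 95% intervals of 33 members stayed within 1.2-fold, for PT between -0.21 and 0.19 with 33 within 1.2-fold. The 4 with wider intervals in both were Hspa1a, Hspa1b, Hspb7 and Sdf2l1. Hspa5 had 125 to 199.5 CPM (median 174) with NR, against 129 to 204 CPM (median 173) without NR, a change of -0.05 ± 0.03. It had 138 to 204 CPM (median 175) with PT, against 125 to 199 CPM (median 171) without PT, a change of 0.06 ± 0.03.

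The interaction tests asked whether running acted differently with a supplement, and 0 members passed for running by NR, running by PT, NR by PT or the term of all 3 factors, against 0% of all genes in each, with 3, 2, 3 and 1 members at an unadjusted p under 0.05 and 0 calls by DESeq2. These are 8.11%, 5.41%, 8.11% and 2.7% of members, against 3.61%, 3.51%, 2.25% and 2.77% of all genes at that threshold. Within single arms, running effects were read from 7 or 8 mice a group. With NR and PT 3 members fell (Hspa5, Hspa8 and Dnajb5), against 1.7% of all genes called and 0.873% lower; with NR alone 1 fell (Hspa5), against 0.447% called and 0.0412% lower; with PT alone 0 passed, against 0.00687%; and with neither 0 passed, against 0%, with 4 and 6 members at an unadjusted p under 0.05 in those last arms (10.8% and 16.2%, against 9.22% and 6.8% of all genes). Hspa5 changed by -0.28 ± 0.05 with NR and PT (adjusted p = 0.0049), by -0.29 ± 0.06 with NR alone (adjusted p = 0.00631), by -0.16 ± 0.05 with PT alone (adjusted p = 0.316) and by -0.13 ± 0.06 with neither (adjusted p = 0.675). The difference between the arms with and without NR, tested as the running by NR term, was -0.14 ± 0.05 with an adjusted p of 1.00 and an unadjusted p of 0.0144, so the larger falls with NR are not shown to differ. In runners with NR alone all 15 ER members had changes below 0, with a median of -0.15, beside a median of 0.01 over all genes in that arm. That group of 7 runners holds the shallowest library, the one with 16.7% of ribosomal-RNA-like counts, which had the lowest values of all mice for 11 of the 37 members, among them Hspa5 (125 CPM), Hsp90b1 (72.1 CPM), Calr (117 CPM) and Hspa8 (373 CPM). Without it all 15 changes still lay below 0, with a median of -0.12, and Hspa5 changed by -0.27 ± 0.06 in that arm (adjusted p = 0.018). The median of the 15 ER members was -0.05 with NR and PT, -0.05 with PT alone and -0.03 with neither, and without the 4 libraries rich in ribosomal-RNA-like reads it was -0.06, -0.06 and -0.08 in these 3 arms. Dnajb5 fell by 0.23 with NR and PT (adjusted p = 0.00603) and changed by -0.05 ± 0.05 with NR alone (adjusted p = 0.739). Hspa8 fell by 0.24 with NR and PT (adjusted p = 0.0391).

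**Figure D3:**
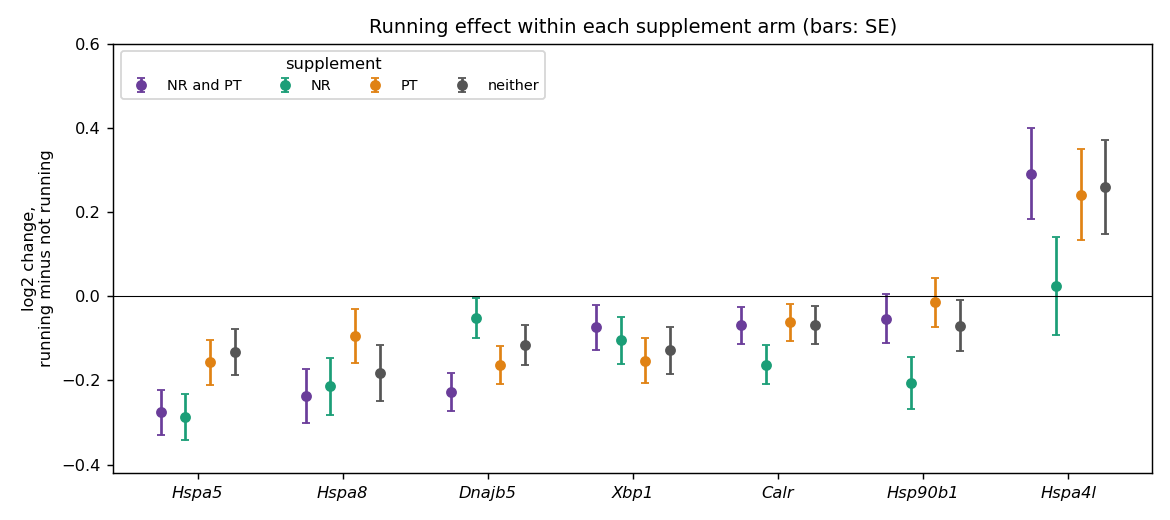
Log2 change in runners minus non-runners (y axis) of the 7 genes that passed the test for running, within each of the 4 supplement arms (colours), with bars for the standard error. Hspa5 lies between -0.29 and -0.13 in the 4 arms, Hspa4l near 0 with NR alone and between 0.24 and 0.29 in the other arms. With NR alone the median of Hspa4l was 9.01 CPM in runners, against 8.04 CPM in non-runners. Those runners include the lowest Hspa4l value of all mice, 4.84 CPM.

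No member passed for time or cohort, whereas 1 day stood apart. For noon against morning 0 members passed, against 0% of all genes, with 1 member (Dnajb5, higher at noon by 0.05 ± 0.02) at an unadjusted p under 0.05, against 5.28% of all genes, and 0 calls by DESeq2. For cohort 2 against cohort 1, 0 members passed, against 0.131% of all genes, with 10 members (27.0%) at an unadjusted p under 0.05, against 9.12% of all genes at that threshold, and 0 calls by DESeq2. The labels also give each library a purification pool. All libraries of cohort 1 were of pool 1, and pools 2 and 3 occurred only in cohort 2, so cohort and pool cannot be fully told apart. Across the 8 days of termination 3 members passed, Hspb7 (adjusted p = 0.00676), Hspb1 (adjusted p = 0.00676) and Cryab (adjusted p = 0.0239), against 0.144% of all genes. All 3 were highest on day 1, a day of cohort 1. Hspb7 had 133 to 865 CPM (median 316) in the 8 mice of day 1, and day medians of 97.5 to 138 CPM on the other 7 days. Cryab had 347 to 934 CPM (median 555) on day 1 and day medians of 311 to 426 CPM on the others. Hspb1 had 49.4 to 146 CPM (median 73.8) on day 1 and day medians of 51.4 to 54.4 CPM on the others. Without day 1, 0 members and 0 of all genes passed the day test, a fit added after the data were seen.

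The mice of day 1 were not all alike. Hspb7 was at 535, 470.3, 217 and 369 CPM in its 4 runners (neither, NR, PT, both) and at 865, 264, 133 and 233 CPM in its 4 non-runners (neither, NR, PT, both). Cryab was at 745, 605, 505 and 609 CPM in the same runners and at 934, 436, 347 and 440.4 CPM in the same non-runners. Among the runners and among the non-runners the mouse given neither supplement was the highest for both genes, and with NR, PT or both the runner was above the non-runner. Each of these values is from 1 mouse. On day 1 all runners were taken at noon and all non-runners in the morning, so running and time cannot be told apart there. Hspb6, at a day median of 631 CPM on day 1 and of 492 to 618 CPM on the others, and Hspb8, at 490.3 CPM on day 1 and 472 to 560 CPM on the others, did not pass for days. Of the 18 other genes called for days, 3 are named here after their values were seen: Flnc (filamin C, the Z disc partner of Hspb7) had a median of 801 CPM on day 1 and 549 CPM on the other days, Ankrd1 34.2 CPM and 13.7 CPM, and Csrp3 55.9 CPM and 7.57 CPM.

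**Figure D4:**
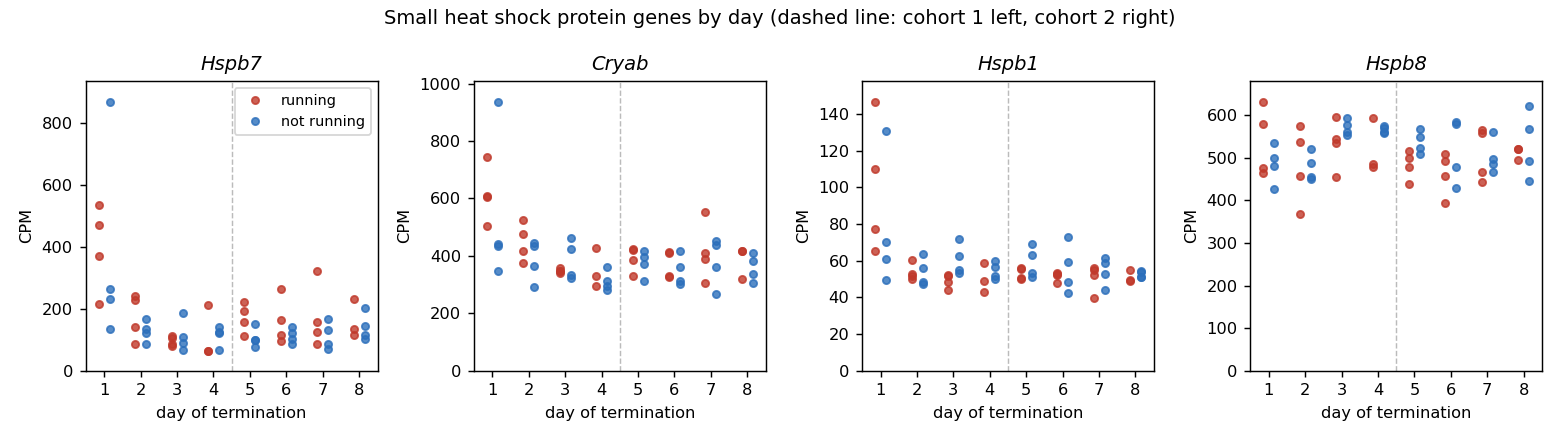
Level in CPM (y axis, linear from 0) of 4 small heat shock protein genes by day of termination (x axis), 1 point per mouse, runners left and non-runners right within a day. Day 1 holds the highest values of Hspb7, Cryab and Hspb1, up to 865, 934 and 146 CPM, while the day medians of Hspb8 run from 472 to 560 CPM, with 490.3 CPM on day 1.

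Members were next compared mouse by mouse, on log2 CPM from which groups, days and time had been removed, over 62 libraries. Of 14 other ER members, 11 were positively related to Hspa5 (Pearson's r, permutation p with 100000 resamples, adjusted over 32 relations), with a median r of 0.44 over the 14. The closest was Hsp90b1 (r = 0.74, rho = 0.65), followed by Pdia3 (r = 0.58, rho = 0.60), Manf (r = 0.57, rho = 0.50) and Calr (r = 0.51, rho = 0.51). For Hsp90b1, Pdia3 and Manf the permutation p of r was 1e-05, the smallest that these resamples give. By Spearman's rho 9 passed, without Hyou1 (r = 0.30) and Dnajc3 (r = 0.31), which passed narrowly by r alone (adjusted permutation p = 0.035 and 0.034). Dnajb9 (r = 0.17), Sdf2l1 (r = 0.08) and Creld2 (r = -0.06) did not pass by either. The median r was 0.49 within cohort 2 and 0.37 within cohort 1, and 0.42 without the 2 libraries farthest from the median of Hspa5. Relations of Hspa5 with genes outside the members were not computed, so the count of 11 has no share over all genes beside it. The permutations shuffled the 62 values freely, although the fit that gave them leaves 46 residual degrees of freedom. Their p-values may therefore be too small.

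For the cytosolic and nuclear members, relations with Hsph1, the HSP110 protein, were tested. Hsph1 was related to 5 of 18 others: Hspa4 (r = 0.48), Hspa4l (r = 0.41), Hsp90ab1 (r = 0.39), Hspa8 (r = 0.38) and Hspb8 (r = 0.37), all positive, with a median r of 0.08 over the 18. By rho 5 passed as well. The median r was 0.18 within cohort 2 and 0.03 within cohort 1. Relations among the small heat shock protein genes were looked for after the data were seen: Cryab was related to Hspb7 (r = 0.78), Hspb6 (r = 0.68) and Hspb1 (r = 0.67) but not to Hspb8 (r = -0.03), and without the 2 libraries farthest from its median r was 0.74, 0.64, 0.59 and -0.06. Hspa5 and Hspa8, the HSP70 genes that fell with running, had r = 0.26, which did not pass (adjusted permutation p = 0.0513), and rho = 0.18 (adjusted permutation p = 0.211), with r = 0.10 within cohort 2 and 0.39 within cohort 1. All these relations share libraries and their depth. Relations of Hsph1 and Cryab with genes outside the members were not computed either, so their counts also lack a share over all genes.

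**Figure D5:**
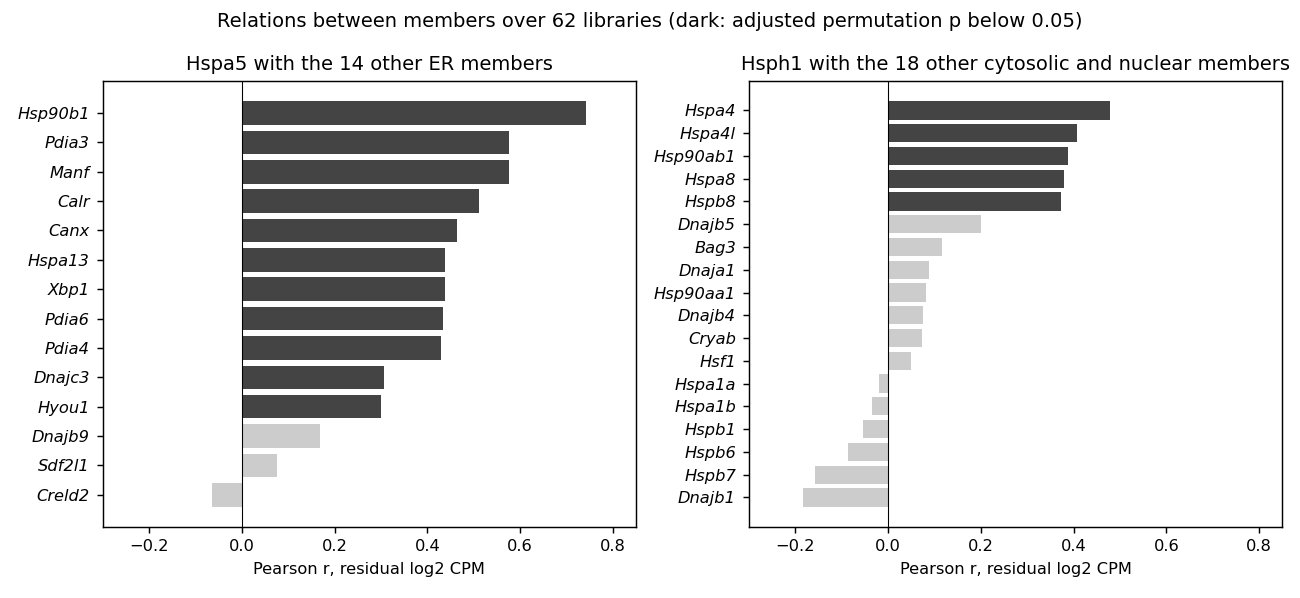
Pearson's r over 62 libraries (x axis), on log2 CPM after removal of groups, days and time, of Hspa5 with the 14 other ER members and of Hsph1 with the 18 other cytosolic and nuclear members, dark where the adjusted permutation p was below 0.05. In the ER panel 11 bars are dark, up to 0.74 for Hsp90b1, and in the cytosolic panel 5, up to 0.48 for Hspa4.

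Further genes of protein folding, in lists that hold none of the 37, were counted for running in the same fit, in which 14% of all genes passed, 5.58% lower and 8.41% higher. Of 25 tested genes of ER translocation and degradation 8 fell and 0 rose, with a median log2 change of -0.05, among them the signal peptidase subunit Spcs2 (-0.16 ± 0.02, adjusted p = 1.07e-05), Derl1 of the retrotranslocation channel (-0.10 ± 0.02, adjusted p = 0.00193), the translocon-associated Ssr3 (-0.11 ± 0.03, adjusted p = 0.00373) and the mannosidase Edem3 (-0.12 ± 0.03, adjusted p = 0.0143). Of 19 genes of ER folding and oxidation 2 fell, a share between the 5.58% of all genes lower and the 14% called in either direction. They were P4hb, the classical disulfide isomerase (-0.11 ± 0.02, adjusted p = 0.000157), and Selenos, a selenoprotein of ER degradation (-0.19 ± 0.04, adjusted p = 0.000361). Of 15 sensors and factors of the unfolded protein response 4 fell and 0 rose: Atf4 (-0.11 ± 0.02, adjusted p = 0.000659) and Creb3l2 (-0.12 ± 0.04, adjusted p = 0.029), which are transcription factors, Atf6 (-0.09 ± 0.03, adjusted p = 0.0318), and Ppp1r15a, which restores translation (-0.13 ± 0.05, adjusted p = 0.0387). The list's median was -0.01, beside 0.01 over all genes. These counts were not stable to the days: without day 1 they were 4 for ER translocation and degradation and 2 for the response, and without day 4 they were 4 and 1.

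In the cytosol all 14 subunits of the chaperonin TRiC and prefoldin, which fold actin and tubulin, had changes below 0 and 5 fell: Tcp1 (-0.11 ± 0.02, adjusted p = 0.000466), Cct6a (-0.12 ± 0.03, adjusted p = 0.00135), Cct2 (-0.10 ± 0.02, adjusted p = 0.00254), Cct5 (-0.09 ± 0.02, adjusted p = 0.00961) and Pfdn2, the last named after its values were seen. In either cohort alone 0 of these subunits passed. The subunits were measured in the same mice, and the list was chosen with earlier results of these data known. Of 25 co-chaperones of HSP70 and HSP90 4 fell, Sugt1, Dnaja2, Stip1 (which links HSP70 to HSP90) and Dnajb2, with changes between -0.12 and -0.10, and 3 rose, Hspa2, Hspa12b and Dnaja4, with changes between 0.14 and 0.19. Those 3 are named after their values were seen, and 0 rose without day 1 and without the 4 libraries rich in ribosomal-RNA-like reads, when 4 and 6 fell. Of 15 genes of mitochondrial import and folding 3 rose, the proteases Htra2 (0.18 ± 0.04, adjusted p = 0.00567), Afg3l2 (0.09 ± 0.03, adjusted p = 0.0224) and Lonp1 (0.09 ± 0.03, adjusted p = 0.0293), with 1 passing without day 1 and 0 without day 4. None of 7 chaperones of myosin and the Z disc and none of 3 other heat shock factors passed, with 1 and 0 at an unadjusted p under 0.05 and 1 and 0 by DESeq2. In none of these lists did a gene pass for NR, PT or noon against morning.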

How the data were processed

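Poly-A libraries from 62 mouse quadriceps were aligned with STAR 2.7.3a to mm10 and counted with featureCounts 2.0.0, per the submitters' processing notes. The authors deposited raw counts of reads for each gene as whole numbers. The strand setting and annotation release are not stated in the labels. Symbols came from GENCODE M21 (99.8% of IDs), promoter windows from RefSeq (GRCm38.p6, 28 of 37 members). Members, lists and tests were chosen with earlier results of these data known.

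In R 4.3.3, edgeR 4.0.16 (filterByExpr, minimum count 10; TMM; robust quasi-likelihood F test) was fitted to the 8 groups, 8 days and time of termination, leaving 46 residual degrees of freedom (biological coefficient of variation 14%). Tests were two-sided. CPM use TMM-scaled library sizes. On counts simulated for the running comparison (14460 genes), recovery was 26% for genes changed 1.1-fold, 74% at 1.25-fold, 94% at 1.5-fold and 100% at 2-fold, with 9 false calls. The simulated mice were drawn independently, with no differences between days, times, sessions or supplements. These rates therefore do not cover spread that mice of a session share in the data. DESeq2 1.42.0 and other fits were alternatives. Described by group were the members called for running, NR, PT or time, the 2 smallest running p-values of each compartment, and up to 4 called genes of each further list. Relations used residual log2 CPM. Reads carry no molecular identifiers, so counts are not independent molecules.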

Additional observations from a re-analysis of the deposited data

Results flagged for a closer look

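Of 56 tests for a lone extreme mouse (7 called members in 8 groups), 3 passed Dixon's 95% critical value, where chance gives about 1 in 20. Hspa8 was at 633 CPM in replicate 2 of the runners with PT alone, against a median of 454 CPM in that group. Dnajb5 was at 238 CPM in the same mouse, against a group median of 211 CPM. Hspa8 was at 604 CPM in replicate 6 of the non-runners with NR and PT, against a group median of 536 CPM.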

How the results depend on the processing

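Under the 20 alternatives for running, the 7 called members, Hspa9 and Hspe1 kept their direction, and Hspa5, Hspa8 and Dnajb5 passed in all 20 settings. The 7 calls for running became 11 with DESeq2 (2 higher, 9 lower, the same 7 among them), 3 in cohort 2 alone and 4 in cohort 1 alone, and 5 to 10 with each day left out. Hsp90b1 failed to pass in 10 of 20 settings, Hspa4l in 3, Calr in 2 and Xbp1 in 1. Hspb6, which rose at an adjusted p of 0.0455 with DESeq2 and 0.0341 with counts summed over the 16 sessions of day and time, did not pass in the fit reported. Of the further lists, the TRiC and the co-chaperone counts were 0 in either cohort alone. Of the ER members, 12 to 15 of 15 had changes below 0, so that some small changes turned sign. The count for running with NR alone, 1, was 2 with DESeq2 and 2 with the replicate block. The count for days of termination, 3, was 0 with the replicate block and 0 to 3 with each day left out, 0 without day 1. The numbers in the titles do not pair the mice: libraries of the same number had a mean correlation of deviations of 0.01, and 11 of 62 correlated best with their own number. With the replicate block 7 members passed for running. The causes of these shifts were not tested. A fit with session as a block cannot estimate running. Depth limits Hspa1a, Hspa1b and Sdf2l1.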
